A study of Homo sapiens with 15 samples.

Results

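The 10 genes described here were the interleukin-1 (IL-1) family cytokines IL1A, IL1B, IL18, IL33 and IL36G, the antagonists IL1RN and IL36RN, and the receptor chains IL1R1, IL1R2 and IL1RAP. They were chosen by name, and all 14 probes whose accession belongs to 1 of these genes were taken, of 50599 probes on the array. Expression was measured on 15 one-colour Agilent arrays of SCC13 cells, a human squamous cell carcinoma line of the epidermis that lacks TLR4. SCC13-TLR4 cells carried a stably transfected plasmid for TLR4 fused to GFP and had been sorted for the brightest GFP signal, whereas SCC13-pUNO cells carried the control plasmid, and both were kept under blasticidin. The 4 groups were untreated SCC13-pUNO cells (4 arrays), untreated SCC13-TLR4 cells (3 arrays), SCC13-pUNO cells after 24 h with 10 µg/ml LPS (4 arrays) and SCC13-TLR4 cells after the same LPS treatment (4 arrays). Each line is a single transfected and selected population, and the labels do not say whether replicates came from separate cultures, so a p-value measures only the spread between arrays, which may be technical.

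IL-1 family cytokines are early signals of epithelial damage. IL-1α, IL-1β, IL-18, IL-33 and the IL-36 cytokines bind a specific receptor chain, which then recruits an accessory chain, and the intracellular TIR domains of the pair call on the same adaptor and kinases as the Toll-like receptors. IL-1β and IL-18 are made as precursors that caspase-1 cuts, so the level of their mRNA is not the level of the active cytokine. Keratinocytes are known for stores of IL-1α, for IL-18 and IL-33, and for an intracellular form of the IL-1 receptor antagonist. LPS acting on TLR4 is the standard inducer of IL1B in monocytes. The comparisons made here address whether the family differed between cells with and without TLR4, and whether LPS shifted it in either line.

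IL1A and IL1B are neighbours on chromosome 2, and the arrays measured them very differently: IL1B was well above background on all 15 arrays and IL1A on 0. The 250 bases before the annotated start of each gene are shown for this reason (RefSeq, build GRCh38.p14, minus strand, written 5′ to 3′ along the gene). They are chr2:112836780-112837029 for IL1B and chr2:112784494-112784743 for the first of 2 annotated starts of IL1A. Capitals mark matches, on either strand, to 3 sets of letters, which do not overlap here: TGANTCA (the AP-1 consensus), TTGCNNAA (the C/EBP consensus) and TATAAA.
IL1B: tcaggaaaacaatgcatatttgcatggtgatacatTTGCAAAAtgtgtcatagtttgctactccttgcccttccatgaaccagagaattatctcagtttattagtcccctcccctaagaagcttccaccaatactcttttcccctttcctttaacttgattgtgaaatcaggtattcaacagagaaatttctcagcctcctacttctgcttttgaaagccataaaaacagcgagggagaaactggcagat
IL1A: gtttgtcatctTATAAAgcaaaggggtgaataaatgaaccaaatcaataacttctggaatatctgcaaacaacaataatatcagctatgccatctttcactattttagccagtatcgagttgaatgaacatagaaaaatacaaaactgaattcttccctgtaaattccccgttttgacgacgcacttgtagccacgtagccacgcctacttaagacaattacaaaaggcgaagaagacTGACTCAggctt
The IL1B window held 1 match to TTGCNNAA, beginning 215 bases before the start, and the IL1A window held TATAAA 239 bases and TGANTCA 12 bases before it. The window of the second annotated start of IL1A, not shown, held TGANTCA 105 and 55 bases before that start and neither TATAAA nor TTGCNNAA. Of 35116 promoter windows of this length, 9.05% held TTGCNNAA, 6.57% held TGANTCA and 10.72% held TATAAA. A match describes letters and not a bound factor. The table of promoters held 18 windows for 9 of the 10 genes. IL18 was not among them.

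Array values are log2 signals minus the log2 75th percentile of the same array, so that 0 is the level of that percentile. It was between 192 and 420 intensity units, and between 47.1% and 56.2% of spots were well above background as the scanner software marks them. A probe was tested when this held on every array of at least 1 group, which kept 22685 probes. The transfected gene, TLR4, lay between 2.84 and 3.19 on the 7 arrays labelled SCC13-TLR4 and between -6.40 and -3.80 on 7 of the 8 labelled SCC13-pUNO. The array labelled SCC13-pUNO untreated 2 went against its label, with TLR4 at 3.04. The other TLR4 probe had 0 detections, so this check rests on 1 probe. The array was kept under its label, and differences of the tested members and named genes that turn sign or move by over 1.5 times without it are also given without it. The arrays came on 2 slides, and slide accounted for 36.9% of the variance over 22380 probes against 19.0% for group, so differences of the tested members and named genes that turn sign or move by over 1.5 times with slide as a factor are also given that way, and the main ones within each slide. Slide columns followed the groups: the 3 untreated SCC13-TLR4 arrays lay in column 1, the 4 LPS-treated SCC13-TLR4 arrays in column 2, the 4 LPS-treated SCC13-pUNO arrays in column 4 and untreated SCC13-pUNO arrays in column 3, apart from the array labelled SCC13-pUNO untreated 2, which lay in column 1. Group and column cannot be told apart. Of 10 keratinocyte markers, 9 were detected on all 15 arrays (KRT5, KRT14, KRT16, KRT17, TP63, SFN, DSG3, CDH1 and ITGB4) and KRT6A on 7. Their summed level was between 9.15 and 9.52 in untreated SCC13-pUNO, 9.18 and 9.47 in untreated SCC13-TLR4, 9.17 and 9.46 in LPS-treated SCC13-pUNO and 9.04 and 9.58 in LPS-treated SCC13-TLR4 cells. This sum follows the brightest markers, such as SFN (group means 8.66, 8.52, 8.65 and 8.58 in that order), and does not show each marker to be level. KRT14 averaged 2.82, 3.71, 2.17 and 3.85 in the same order, higher in SCC13-TLR4 cells, and no test of it is given here. Of 7 fibroblast markers, 6 were detected on 0 arrays (COL1A2, COL3A1, PDGFRB, PDGFRA, DCN and LUM) and COL1A1 on 6. The 4 melanocyte markers were detected on all 15 arrays (PMEL), 4 (TYR), 2 (MLANA) and 1 (DCT). Of 6 monocyte and macrophage markers with a probe, PTPRC, CD14, CD68 and CSF1R were detected on all 15 arrays, ITGAM on 7 and CD163 on 0. The summed level of these 6 was between 0.14 and 0.45 in untreated SCC13-pUNO, 0.33 and 0.47 in untreated SCC13-TLR4, 0.26 and 0.45 in LPS-treated SCC13-pUNO and 0.24 and 0.87 in LPS-treated SCC13-TLR4 cells. This sum is led by CSF1R (group means -0.69, -0.59, -0.64 and -0.57 in that order) and does not show each marker to be level. In the same order PTPRC averaged -3.06, -2.36, -2.63 and -2.29. CD14 averaged -2.44, -2.63, -2.51 and -2.24, and CD68 -2.05, -2.16, -2.27 and -2.18. The part of these markers in the values below was not tested.

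The family split into a detected part and a part near background. IL18, IL1B and 2 probes of IL1RAP were well above background on all 15 arrays, and the first IL1RN probe on 14. These 5 probes of 4 genes were tested. The other 9 probes were not, and 6 genes had no tested probe. Among the cytokines these were IL1A, IL33 (5 of 15 arrays) and IL36G (1 of 15), among the antagonists IL36RN (0 of 15), and among the receptors IL1R1 (3 of 15 by its first probe and 2 by its second) and IL1R2 (1 of 15). The third IL1RAP probe, on another transcript of the gene, was detected on 0 arrays, and the second IL1RN probe on 10. A probe that is not well above background is not shown to lack its RNA. In the order of RefSeq along chromosome 2, the receptor genes IL1R2, IL1R1, IL1RL2, IL1RL1, IL18R1 and IL18RAP come first and none of these 6 was tested. The cytokine genes follow as IL1A, IL1B, IL37, IL36G, IL36A, IL36B, IL36RN, IL1F10 and IL1RN, of which IL1B, IL37, IL1F10 and IL1RN were tested. IL18 lies on chromosome 11, IL1RAP on chromosome 3 and IL33 on chromosome 9.

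**Figure D1:**
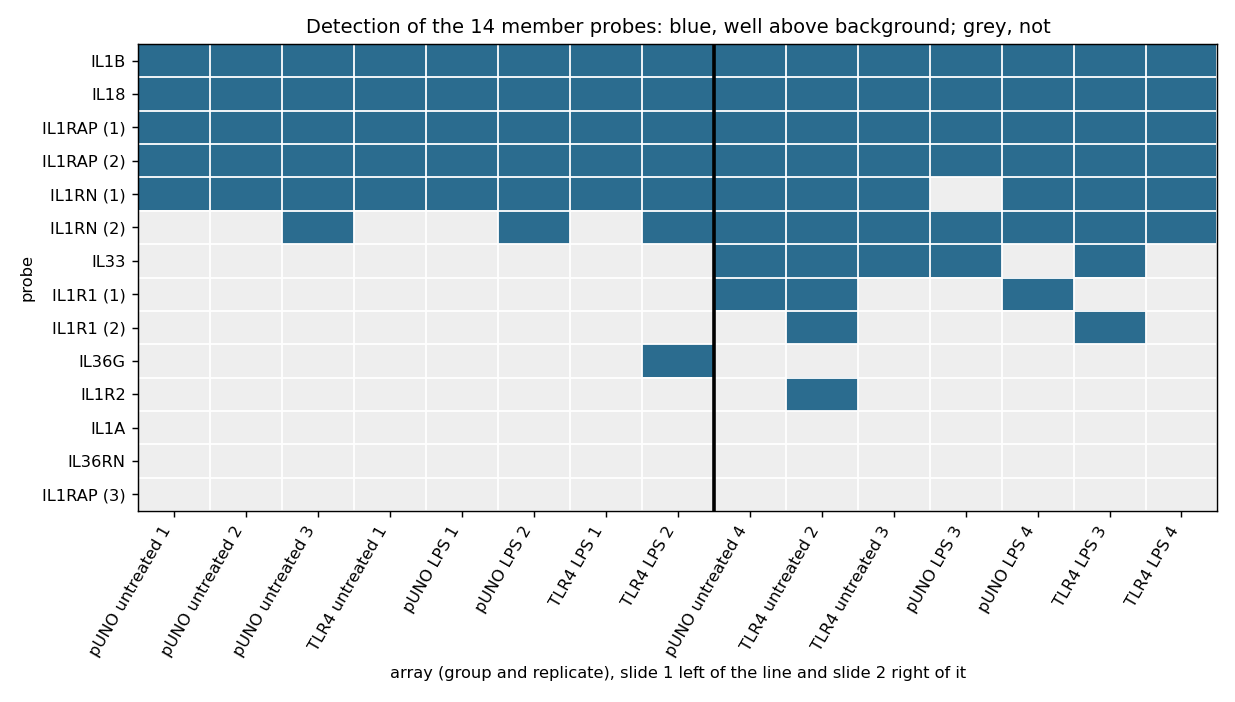
Detection of the 14 probes (rows, numbered where a gene has several) on the 15 arrays (columns), with 8 arrays of slide 1 left of the black line and 7 of slide 2 right of it. Blue marks a probe well above background and grey one that is not; IL1B, IL18 and the first 2 IL1RAP probes are blue throughout, while the 5 detections of IL33 all lie on slide 2.

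Faint members were seen mostly on slide 2. The 9 untested probes gave 18 detections in 63 probe-array pairs on slide 2 (28.6%) and 4 in 72 on slide 1 (5.56%). Over the 27914 untested probes of the whole array these shares were 8.86% and 6.01%. The part of the slide in the counts of detection was not tested.

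No tested probe of the family passed the threshold in any of the 6 comparisons, in which limma was fitted over all 15 arrays with Benjamini-Hochberg adjustment and a threshold of 0.05. The background was as low. The share of all 22685 probes called was 0% in 5 comparisons and 0.022% (5 probes, of the genes FANCF, HBB, MEST, RANBP17 and TLR4, named here after their values were seen) for SCC13-TLR4 against SCC13-pUNO cells averaged over untreated and LPS-treated arrays. At an unadjusted p under 0.05, between 299 and 982 of all probes passed in a comparison. Among the 5 tested probes of 4 genes, 2 did so in untreated cells (2.5% of all probes) and 0 with LPS (2.72%). For the mean of both it was 2 (4.33%). For the LPS response it was 1 in SCC13-pUNO (2.48%) and 0 in SCC13-TLR4 cells (1.33%), and for the difference of the responses 1 (1.32%). The lowest adjusted p of a member was 0.996. The 30 log2 differences ran from -0.53 to 0.44, and their 95% intervals from -1.14 to 0.77, so that a log2 change of 2 either way, the size the study's methods ask for, lay outside every interval.

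**Figure D2:**
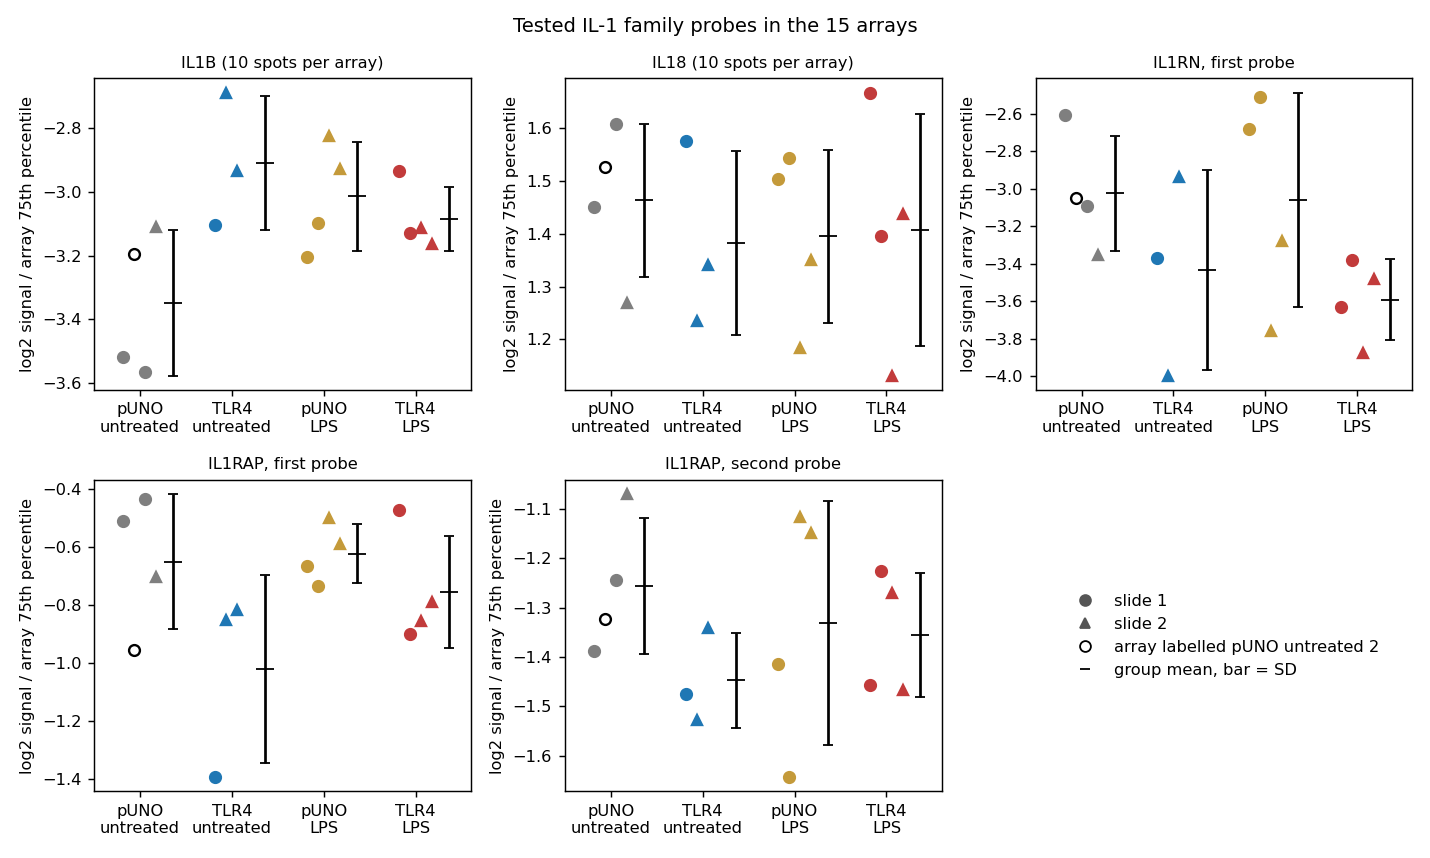
Level of the 5 tested probes (log2 of the signal over the array's 75th percentile, vertical axis, with a scale of its own in each panel) in the 4 groups. Circles are arrays of slide 1, triangles of slide 2, the open circle is the array labelled SCC13-pUNO untreated 2, and bars give mean and SD; the groups compared overlap in every panel, apart from untreated SCC13-TLR4 and SCC13-pUNO cells for IL1B, which are 0.0054 apart, and the lowest IL18 array of each group is on slide 2.

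IL18, the precursor of a cytokine that acts with IL-12 to induce interferon-γ, was printed in 10 spots per array, and all 150 spots were well above background. Its level was 1.45, 1.53, 1.61 and 1.27 in untreated SCC13-pUNO replicates 1 to 4 and 1.58, 1.23 and 1.34 in untreated SCC13-TLR4 replicates 1 to 3. After LPS it was 1.50, 1.54, 1.18 and 1.35 in SCC13-pUNO and 1.67, 1.40, 1.13 and 1.44 in SCC13-TLR4 cells. All 4 groups overlapped, and the lowest array of each was on slide 2. The group means were 1.46 ± 0.14 (SD, n = 4), 1.38 ± 0.17 (SD, n = 3), 1.40 ± 0.16 (SD, n = 4) and 1.41 ± 0.22 (SD, n = 4) in that order, and no neighbours in their ranking differed beyond their spread. SCC13-TLR4 minus SCC13-pUNO was -0.034 over both treatments (95% interval -0.25 to 0.18), and the LPS response was -0.068 in SCC13-pUNO (-0.36 to 0.22) and 0.025 in SCC13-TLR4 cells (-0.29 to 0.34). With slide as a factor the first of these was 0.021, the second -0.0031 and the last -0.019, with the sign of the first and the last turned. Within slide 1 and slide 2 the LPS response in SCC13-pUNO cells was -0.0044 and -0.0027. IL18 differed by less than the spread between arrays in every comparison. The 10 spots of an array agreed closely, with an SD between 0.030 and 0.10, and the SD between arrays of a group, 0.18, was 6.58 times the standard error of an array's mean over its spots.

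IL1B, the precursor of IL-1β, was printed in 10 spots as well, of which 145 of 150 over the arrays were well above background. Its level was -3.52, -3.20, -3.57 and -3.11 in untreated SCC13-pUNO replicates 1 to 4 and -3.10, -2.69 and -2.94 in untreated SCC13-TLR4 replicates 1 to 3. The 3 SCC13-TLR4 arrays all lay above the 4 SCC13-pUNO arrays, by a gap of 0.0054 between the nearest, which is smaller than the median standard error of 0.075 over the spots of an array. Groups did not overlap for 3.73% of all tested probes in this comparison, and for 1 of the 5 probes of the family. In the other comparisons of 2 groups this share was 1.29% (lines with LPS), 1.27% (LPS in SCC13-pUNO) and 1.79% (LPS in SCC13-TLR4 cells), and 0 of the 5 probes did so in any of them. The difference was 0.44 (SE 0.15, 95% interval 0.12 to 0.75; unadjusted p = 0.0103, adjusted p = 0.999 by limma), and a two-sided exact permutation test over 35 splits gave p = 0.0571. Without the array labelled SCC13-pUNO untreated 2 it was 0.49 (exact permutation p = 0.10, the smallest 3 arrays against 3 allow). In RNA of whole cultures, fewer cells with a transcript and less of it per cell cannot be told apart. IL1B was 0.25 higher on slide 2, which held 2 of the 3 SCC13-TLR4 and 1 of the 4 SCC13-pUNO arrays. With slide as a factor the difference was 0.36, and within slide 1 and slide 2 it was 0.32 and 0.30.

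With LPS, IL1B was -3.21, -3.10, -2.82 and -2.93 in SCC13-pUNO and -2.94, -3.13, -3.11 and -3.16 in SCC13-TLR4 replicates 1 to 4. These groups overlapped, and SCC13-TLR4 minus SCC13-pUNO was -0.072 (95% interval -0.36 to 0.22; exact permutation p = 0.514). The group means of IL1B ranked as untreated SCC13-TLR4 at -2.91 ± 0.21 (SD, n = 3), LPS-treated SCC13-pUNO at -3.01 ± 0.17 (SD, n = 4), LPS-treated SCC13-TLR4 at -3.08 ± 0.10 (SD, n = 4) and untreated SCC13-pUNO at -3.35 ± 0.23 (SD, n = 4). Neighbours among the first 3 differed by less than their SDs, and the step down to untreated SCC13-pUNO was larger than the SD of either group. Against untreated cells, LPS-treated SCC13-pUNO arrays were higher in 14 of 16 pairs, by 0.33 (SE 0.14, 95% interval 0.041 to 0.63; unadjusted p = 0.0283, adjusted p = 1.00 by limma; exact permutation p = 0.0857). The value was 0.38 without the array labelled SCC13-pUNO untreated 2, 0.29 with slide as a factor, and 0.28 and 0.23 within slide 1 and slide 2. LPS-treated SCC13-TLR4 arrays were lower than untreated ones in 10 of 12 pairs, with a difference of -0.18 (95% interval -0.49 to 0.14; exact permutation p = 0.20). Within the slides this response was 0.072 on slide 1 and -0.33 on slide 2, so its sign differed between them. The difference between the LPS responses of the lines was -0.51 (SE 0.20, 95% interval -0.94 to -0.079; unadjusted p = 0.0238, adjusted p = 1.00 by limma). It was -0.56 without the array labelled SCC13-pUNO untreated 2, -0.44 with slide as a factor, and -0.20 and -0.56 within slide 1 and slide 2. An LPS response of IL1B in SCC13-TLR4 cells above 0.14 on the log2 scale (1.10-fold) lay outside the 95% interval. This holds for 24 h, the only time measured, and the interval covers only the spread between arrays.

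**Figure D3:**
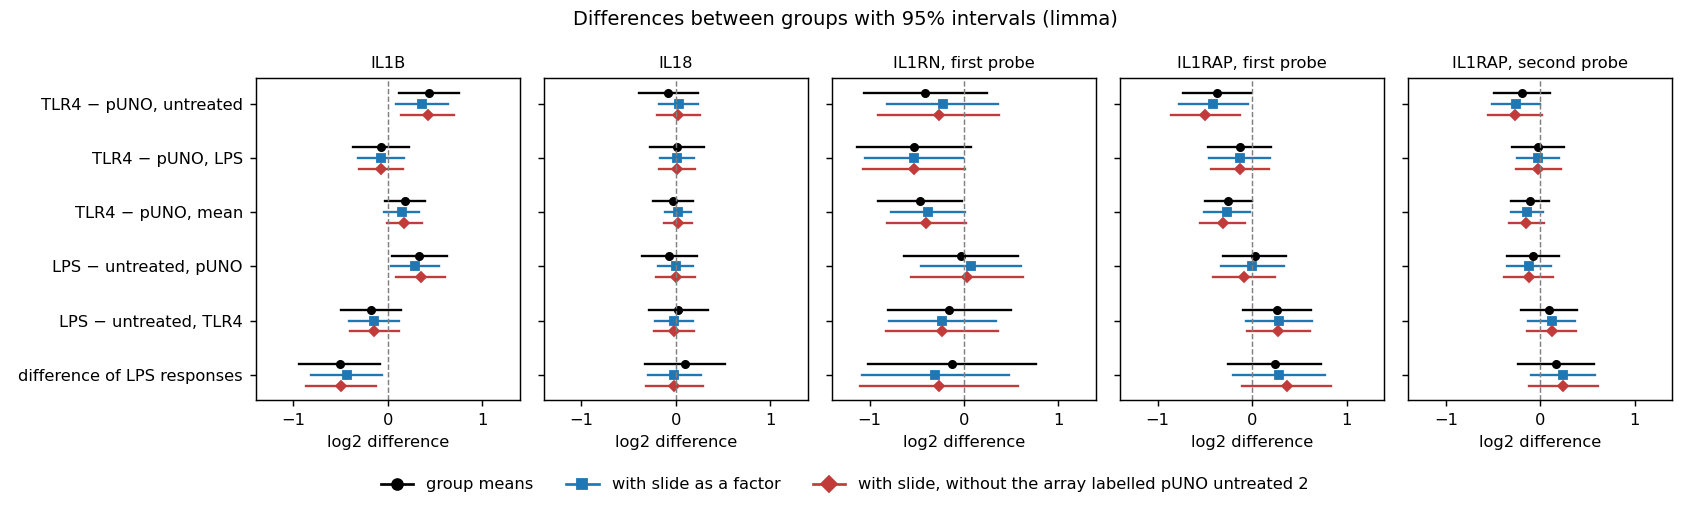
Log2 differences between groups (points) with 95% intervals (lines) for the 5 tested probes and 6 comparisons, from the group means (black), with slide as a factor (blue) and with slide and without the array labelled SCC13-pUNO untreated 2 (red). The IL1B intervals leave out 0 in untreated cells, for LPS in SCC13-pUNO cells and for the difference of the responses, before adjustment over all probes.

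IL1A, the precursor of IL-1α, was also printed in 10 spots, and 16 of its 150 spots were well above background, never more than 3 on 1 array. These were 4 of 40 spots in untreated SCC13-pUNO, 6 of 30 in untreated SCC13-TLR4, 1 of 40 in LPS-treated SCC13-pUNO and 5 of 40 in LPS-treated SCC13-TLR4 cells. Measured values were -5.67, -4.69, -5.15 and -4.87 in untreated SCC13-pUNO and -4.80, -4.68 and -4.58 in untreated SCC13-TLR4 cells. These untreated values overlapped. IL1A read 0.30 higher on slide 2, which held 2 untreated SCC13-TLR4 arrays and 1 untreated SCC13-pUNO array. After LPS they were -5.20, -4.97, -4.55 and -4.85 in SCC13-pUNO and -4.69, -4.79, -4.69 and -4.66 in SCC13-TLR4 cells, and they overlapped. The SD over the spots of an array reached 0.835. No difference was tested for IL1A, since the signal was not well above background on any array.

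IL33, an alarmin kept in the nucleus of epithelial cells, was well above background on 5 arrays, which were untreated SCC13-pUNO replicate 4 (-3.04), untreated SCC13-TLR4 replicates 2 (-2.51) and 3 (-2.59), LPS-treated SCC13-pUNO replicate 3 (-2.14) and LPS-treated SCC13-TLR4 replicate 3 (-2.85). All 5 were on slide 2, where 7 arrays lay, and each group had at least 1. On the other 10 arrays the probe read between -6.15 and -4.10 and was not well above background. IL36G, a cytokine of stressed keratinocytes, was detected on LPS-treated SCC13-TLR4 replicate 2 (-3.80) and read between -6.66 and -4.96 elsewhere. IL36RN, the antagonist of the IL-36 receptor, was between -6.51 and -4.31 with 0 detections.

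IL1RN encodes the antagonist that occupies the IL-1 receptor without a signal. Its first probe read -2.61, -3.05, -3.09 and -3.35 in untreated SCC13-pUNO and -3.37, -4.00 and -2.94 in untreated SCC13-TLR4 cells. After LPS it read -2.68, -2.51, -3.76 and -3.28 in SCC13-pUNO and -3.63, -3.38, -3.87 and -3.48 in SCC13-TLR4 cells, and the groups overlapped in both settings. Group means were -3.03 ± 0.31 (SD, n = 4) and -3.43 ± 0.53 (SD, n = 3) without LPS and -3.06 ± 0.57 (SD, n = 4) and -3.59 ± 0.22 (SD, n = 4) with it, and no neighbours in their ranking were further apart than the larger of their SDs. The -3.76 of SCC13-pUNO replicate 3 was the only value not well above background. SCC13-TLR4 minus SCC13-pUNO was -0.41 in untreated cells (95% interval -1.06 to 0.24), -0.53 with LPS (-1.14 to 0.072) and -0.47 for the mean of both (SE 0.21, -0.91 to -0.026; unadjusted p = 0.0396, adjusted p = 0.996 by limma; two-sided permutation within treatments, p = 0.0502). Within slide 1 the mean difference was -0.68 and within slide 2 it was -0.14, and with slide as a factor it was -0.38 (unadjusted p = 0.0557, adjusted p = 0.479 by limma). Without the array labelled SCC13-pUNO untreated 2 it was -0.47. In untreated cells the difference with slide as a factor was -0.23. In the 4 pairs of LPS-treated arrays with the same replicate number, which shared a slide, it was -0.94, -0.87, -0.12 and -0.20, lower in 4 of 4. One sign in all 4 pairs was found for 13.1% of all tested probes and for 1 of the 5 probes of the family. LPS responses were -0.033 in SCC13-pUNO (-0.64 to 0.57; 0.076 with slide as a factor) and -0.16 in SCC13-TLR4 cells (-0.81 to 0.50), within the spread of the arrays. The difference between these responses was -0.12 (-1.01 to 0.77), and with slide as a factor it was -0.30.

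The second IL1RN probe, which lies on the same transcript, behaved otherwise. It was detected on 7 of 7 arrays of slide 2, where it averaged -2.78 ± 0.44 (SD), and on 3 of 8 of slide 1, where it averaged -4.63 ± 1.16 (SD). Slide 2 minus slide 1 was therefore 1.85 for this probe and -0.49 for the first, of opposite sign. Per group it was detected on 2 of 4 untreated SCC13-pUNO, 2 of 3 untreated SCC13-TLR4, 3 of 4 LPS-treated SCC13-pUNO and 3 of 4 LPS-treated SCC13-TLR4 arrays. It carried no test, and the 2 probes of the gene disagreed.

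**Figure D4:**
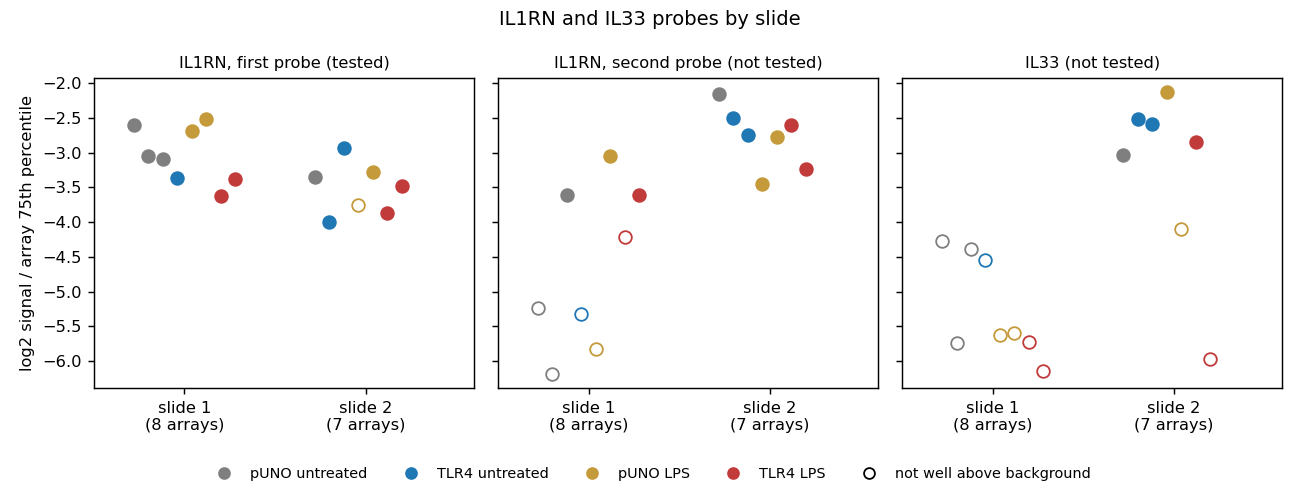
Level (log2 of the signal over the array's 75th percentile) of both IL1RN probes and of IL33 on 8 arrays of slide 1 and 7 of slide 2, coloured by group, with open circles where the probe was not well above background. The second IL1RN probe and IL33 are higher on slide 2, by 1.85 and 1.94 on average, and the first IL1RN probe is lower by 0.49.

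IL1RAP is the accessory chain shared by the receptors for IL-1, IL-33 and the IL-36 cytokines, and, of the receptor genes among the 10, the one detected on every array. Its 2 tested probes lie on different transcripts of the gene, and which form of the chain each reads was not examined. Its first probe read -0.51, -0.95, -0.43 and -0.70 in untreated SCC13-pUNO and -1.39, -0.85 and -0.82 in untreated SCC13-TLR4 cells. The low SCC13-pUNO value, -0.95, belonged to the array labelled SCC13-pUNO untreated 2, and these groups overlapped. After LPS the probe read -0.66, -0.73, -0.50 and -0.59 in SCC13-pUNO and -0.47, -0.90, -0.85 and -0.79 in SCC13-TLR4 cells, with the highest of these 8 values in SCC13-TLR4 replicate 1. The first probe averaged -0.65 ± 0.23 (SD, n = 4) and -1.02 ± 0.32 (SD, n = 3) without LPS and -0.62 ± 0.10 (SD, n = 4) and -0.75 ± 0.19 (SD, n = 4) with it. SCC13-TLR4 minus SCC13-pUNO was -0.37 in untreated cells (SE 0.17, 95% interval -0.73 to -0.0093; unadjusted p = 0.0451, adjusted p = 0.999 by limma; exact permutation p = 0.143). Without the array labelled SCC13-pUNO untreated 2 it was -0.47 (exact permutation p = 0.10, the smallest 3 arrays against 3 allow). With slide as a factor it was -0.41, but within slide 1 it was -0.76 and within slide 2 it was -0.13. With LPS the difference was -0.13 (-0.47 to 0.20), and within slide 1 and slide 2 it was 0.013 and -0.28.

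For the mean of both treatments the first IL1RAP probe differed by -0.25 (SE 0.11, 95% interval -0.50 to -0.0049; unadjusted p = 0.0462, adjusted p = 0.996 by limma; two-sided permutation within treatments, p = 0.0461), and by -0.30 without the array labelled SCC13-pUNO untreated 2 (adjusted p = 0.999 by limma; permutation p = 0.0171). The second probe, on another transcript, read -1.39, -1.32, -1.24 and -1.07 in untreated SCC13-pUNO and -1.48, -1.53 and -1.34 in untreated SCC13-TLR4 cells, lower in 11 of 12 pairs. After LPS it read -1.41, -1.64, -1.12 and -1.15 in SCC13-pUNO and -1.46, -1.23, -1.27 and -1.47 in SCC13-TLR4 cells, which overlapped. Its difference was -0.19 in untreated cells (-0.49 to 0.11) and -0.024 with LPS (-0.30 to 0.25), and -0.11 for the mean of both (-0.31 to 0.095). With slide as a factor the untreated difference was -0.26 (-0.52 to -0.0065; unadjusted p = 0.0453, adjusted p = 0.895 by limma), and within slide 1 and slide 2 it was -0.16 and -0.36. It was -0.21 without the array labelled SCC13-pUNO untreated 2. Both probes were thus lower in untreated SCC13-TLR4 cells by values whose adjusted p did not pass. The LPS responses of the first probe were 0.028 in SCC13-pUNO (-0.31 to 0.36) and 0.27 in SCC13-TLR4 cells (-0.094 to 0.63), and those of the second -0.074 (-0.35 to 0.20) and 0.092 (-0.20 to 0.39). The response in SCC13-pUNO cells turned to -0.074 for the first probe without the array labelled SCC13-pUNO untreated 2, and with slide as a factor it was 0.0029 for the first and -0.12 for the second.

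IL1R1, the signalling receptor of IL-1, was at the edge of detection. Its first probe was well above background on untreated SCC13-pUNO replicate 4 (-4.14), untreated SCC13-TLR4 replicate 2 (-4.32) and LPS-treated SCC13-pUNO replicate 4 (-3.80), and its second on untreated SCC13-TLR4 replicate 2 (-3.77) and LPS-treated SCC13-TLR4 replicate 3 (-4.21). Only untreated SCC13-TLR4 replicate 2 was detected by both, and all of these arrays were on slide 2. IL1R2, the decoy that binds IL-1 without a signal, was detected on that same SCC13-TLR4 array (-3.68) and read between -6.56 and -4.15 on the other 14. No fold is given for these receptors, because no group was measured on all its arrays.

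The rest of the pathway was looked at in 5 lists, and no gene of any passed the threshold in the 6 comparisons. Of 4 other ligands, 2 were tested, IL37 and IL1F10, both known as restraining members of the family. For SCC13-TLR4 against SCC13-pUNO over both treatments IL37 differed by 0.14 (95% interval -0.64 to 0.91) and IL1F10 by 0.18 (-0.20 to 0.57). These values were 0.071 and 0.0998 without the array labelled SCC13-pUNO untreated 2, and with slide as a factor that of IL37 was 0.32. Over 24 alternatives IL37 ran from -0.091 to 0.33, and over 23 IL1F10 ran from 0.041 with normexp background correction to 0.31. Of 8 other receptors and decoys, 3 were tested. SIGIRR, an inhibitory receptor, was level in the 4 groups (means between 2.51 and 2.59), with a difference of -0.042 (-0.26 to 0.18), which was -0.023 without that array and 0.024 with slide as a factor. IL1RAPL1, a relative of IL1RAP, differed by 0.49 (0.059 to 0.91; adjusted p = 0.996 by limma; 0.061 with normexp background correction) and was detected on 1 of 4 arrays of each SCC13-pUNO group, 3 of 3 untreated and 3 of 4 LPS-treated SCC13-TLR4 arrays. It was tested only because untreated SCC13-TLR4 cells, the group with its highest mean, met the filter. That choice favours a difference of this sign, so its interval is no support for one. IL18BP, the soluble trap of IL-18, was the third, and the specific receptor chains of IL-18, IL-33 and IL-36 were not tested.

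Of 14 inflammasome and processing genes, 7 were tested (CASP4, CASP8, AIM2, CARD8, GSDMD, CAPN1 and CAPN2). CASP1, the protease that cuts IL-1β and IL-18, was not among them, and neither were its partners PYCARD and NLRP3. The median difference of the 7 for SCC13-TLR4 against SCC13-pUNO over both treatments was -0.022, against -0.0074 over all tested probes. AIM2, a sensor of cytosolic DNA, differed by 0.28 (95% interval -0.063 to 0.63), and CAPN2, a calpain, by -0.17 (-0.32 to -0.030; adjusted p = 0.996 by limma). Of 13 genes next to the receptor, 9 were tested (MYD88, IRAK1, TOLLIP, TRAF6, TAB1, TAB2, TAB3, MAP3K7 and PELI1), with a median of -0.060. PELI1, a ubiquitin ligase of the IRAK kinases, differed by -0.22 (-0.48 to 0.032). In LPS-treated cells the groups did not overlap for PELI1, as for 1.29% of all tested probes. The nearest arrays, both replicate 1, read -0.030 in SCC13-pUNO and -0.036 in SCC13-TLR4 cells. The PELI1 difference with LPS was -0.47 (-0.82 to -0.12; adjusted p = 0.9997 by limma). In untreated cells it was 0.021, which turned to -0.047 without the array labelled SCC13-pUNO untreated 2 and to -0.081 with slide as a factor. TAB3 differed by 0.20 (-0.33 to 0.74), which was 0.019 with slide as a factor. The adaptor MYD88 and the kinase IRAK1 were thus tested, and IRAK4 and the receptor IL1R1 were not.

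Of 21 target genes of IL-1 in keratinocytes, 7 were tested (CXCL1, CXCL2, IL6, DEFB4A, MMP9, NFKBIA and NFKBIZ), and 14 were not, among them CXCL8, CCL20, LCN2, S100A8 and ICAM1. The median of the 7 for SCC13-TLR4 against SCC13-pUNO over both treatments was -0.18. CXCL1 and DEFB4A, described next, were positive and the rest were negative. The negative ones were IL6 (-0.43), NFKBIZ (-0.28), NFKBIA (-0.21), MMP9 (-0.18) and CXCL2 (-0.0096), none past the threshold. With slide as a factor MMP9 and CXCL2 were each at -0.11. CXCL1, a chemokine for neutrophils, read -1.26, -0.19, -1.21 and -0.96 in untreated SCC13-pUNO and -0.53, -0.18 and -0.029 in untreated SCC13-TLR4 cells. After LPS it read -1.45, -1.41, -0.67 and -0.90 in SCC13-pUNO and -0.075, 0.16, -0.14 and -0.11 in SCC13-TLR4 cells, which did not overlap. The share of all tested probes whose LPS-treated groups did not overlap was 1.29%. The array labelled SCC13-pUNO untreated 2 lay among the SCC13-TLR4 arrays for this gene as it did for TLR4.

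CXCL1 differed between the lines by 0.86 over both treatments (SE 0.17, 95% interval 0.49 to 1.24; unadjusted p = 0.00025, adjusted p = 0.227 by limma). Without the array labelled SCC13-pUNO untreated 2 the value was 0.98 and passed the threshold (adjusted p = 0.0168 by limma), as it did with slide as a factor and without that array (0.93, adjusted p = 0.00587). Over the 24 alternatives the adjusted p ranged from 0.00587 to 0.765, and it passed in these 2. Its LPS response was -0.20 in SCC13-pUNO (-0.71 to 0.31) and 0.21 in SCC13-TLR4 cells (-0.35 to 0.76). The first of these turned to 0.037 without the array labelled SCC13-pUNO untreated 2.

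DEFB4A, the antimicrobial β-defensin 2, read -3.13, -3.45, -3.52 and -2.48 in untreated SCC13-pUNO and -2.20, -2.39 and -1.37 in untreated SCC13-TLR4 cells, which did not overlap, as for 3.73% of all tested probes. After LPS it read -2.72, -2.92, -2.50 and -2.43 in SCC13-pUNO and -1.97, -2.13, -2.33 and -2.69 in SCC13-TLR4 cells, which overlapped. The difference between the lines was 1.16 in untreated cells (95% interval 0.55 to 1.77; adjusted p = 0.999 by limma), 0.36 with LPS (-0.20 to 0.93) and 0.76 for the mean of both (0.35 to 1.18; adjusted p = 0.721). Without the array labelled SCC13-pUNO untreated 2 the mean difference was 0.71 (adjusted p = 0.799), and over 24 alternatives it ran from 0.29 with normexp background correction to 0.87.

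**Figure D5:**
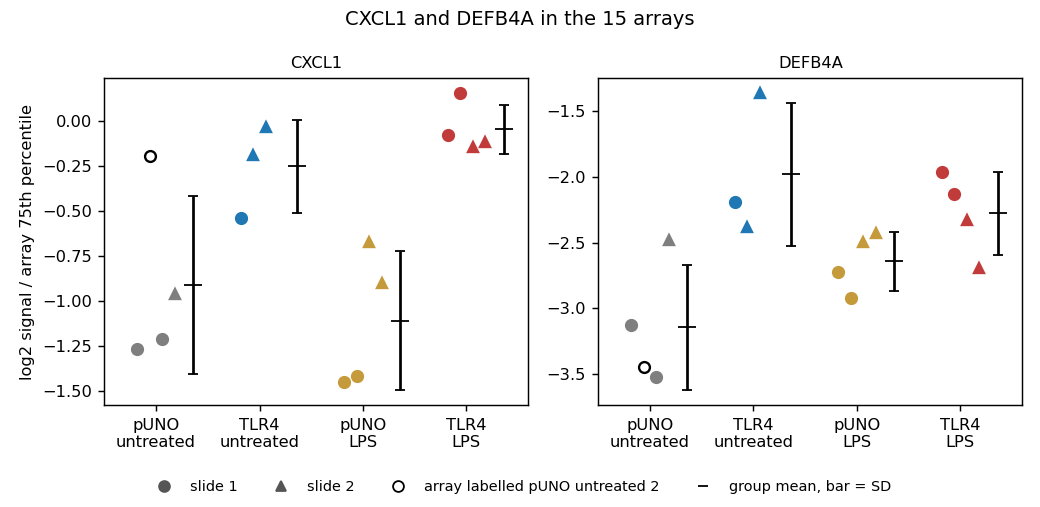
CXCL1 and DEFB4A (log2 of the signal over the array's 75th percentile, with a scale of its own in each panel) in the 4 groups, with circles for slide 1, triangles for slide 2, the open circle for the array labelled SCC13-pUNO untreated 2 and bars for mean and SD. The CXCL1 value of the open circle, -0.19, lies among the SCC13-TLR4 arrays, whereas its DEFB4A value, -3.45, lies among the SCC13-pUNO arrays.

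Over the 15 arrays, with slide means subtracted, the 3 of 12958 other genes whose tested probe was most like IL1B were GSDMB (Pearson's r = 0.92), CYP2A13 (r = 0.83) and C11orf42 (r = 0.81). These are descriptions over arrays that share group and slide, and of 12958 genes some reach such a value. The other tested members stood far from IL1B on this scale, with r = 0.0022 for IL18, -0.25 for IL1RAP and -0.39 for IL1RN. Before the slide means were subtracted the r with IL18 was -0.46 and that with IL1RN was -0.58.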

How the data were processed

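RNA was read on 1-colour Agilent SurePrint G3 Human 8x60K arrays labelled with Cy3. Per the file headers, the authors made each spot intensity with Feature Extraction 10.7.3.1, which subtracts background and corrects the trend across the array, and they deposited these intensities without normalization between arrays. The deposited software flags, 0 or 1, mark outlier spots and spots well above background. Groups and replicate numbers came from the sample labels. The members and lists were chosen with earlier results of these data known.

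The log2 intensity was set relative to the 75th percentile of the non-control spots of its array. Outlier spots were left out, and spots of a probe were averaged. A probe counted as well above background on an array when this held for at least 50% of its spots. Probes were named through their accessions with RefSeq, and 28174 of 50599 had a symbol. A gene was represented by its probe with the highest mean. Named genes were the 10 members with every probe, TLR4, the 3 genes most like IL1B, and in each list the 2 genes with the largest difference between the lines over both treatments. IL1A had no tested probe and hence no such likeness. The lists held other ligands, other receptors, inflammasome genes, proximal signalling, target genes, and markers of keratinocytes, monocytes, fibroblasts and melanocytes.

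The fit was made in R 4.3.3 with limma 3.58.1 over the 15 arrays and had a mean for each group. Single probes were also tested with exact permutations over arrays. The steps were tested on simulated data. Python 3.11.15 was used for tables. The number of arrays limits the precision. Alternatives were outlier spots kept, normexp background correction (offset 50), quantile normalization, a stricter filter (all 15 arrays) or none, slide as a factor, the replicate block, the mean of a gene's probes, a fit of the compared groups alone, and leaving out arrays singly. Among LPS-treated arrays the replicate number followed the slide: all 4 pairs with the same number shared a slide and deviated together (r between 0.383 and 0.616). Among untreated arrays it did not, with replicates 2 and 3 on slide 1 in SCC13-pUNO and on slide 2 in SCC13-TLR4 cells. Over all 21 pairs with the same number r ran from -0.537 to 0.616.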

Additional observations from a re-analysis of the deposited data

Results flagged for a closer look

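Among the 42 sets of 4 arrays (14 probes in 3 groups), 3 held an array far from the other 3 by Dixon's criterion, where chance gives about 1 in 20. IL33 in LPS-treated SCC13-TLR4 replicate 3 was at -2.85 and well above background, with the others between -6.15 and -5.73. IL36G in LPS-treated SCC13-TLR4 replicate 2 was at -3.80 and well above background, with the others between -6.66 and -6.33. IL1R2 in the same replicate 2 was at -6.11, with the others between -5.12 and -5.03, and none of these 4 was well above background. All 3 probes are printed in 1 spot per array, so no second spot shows the value.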

How the results depend on the processing

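No member passed the threshold under any alternative, with a lowest adjusted p of 0.361. Of 260 member differences under other settings, 243 kept their sign and 17 turned it, and of 450 with an array left out 428 kept it and 22 turned it. IL1B turned in none.

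The count of all probes called for the lines over both treatments, 5, became 0 with quantile normalization, the filter on all 15 arrays, outlier spots kept or the replicate block, 2 without a filter, 22 with slide as a factor and 49 with slide and without the array labelled SCC13-pUNO untreated 2. With slide and without that array the counts were 11 in untreated cells and 22 with LPS, and with only the groups compared 5 with LPS. With 1 array left out, the counts ranged from 0 to 7 in untreated cells, 0 to 10 with LPS and 0 to 23 over both, the highest each without the array labelled SCC13-pUNO untreated 2, from 0 to 1 and 0 to 3 for LPS in SCC13-pUNO and SCC13-TLR4 cells and 0 to 2 for the difference of the responses. The replicate block as a paired fit joined some arrays across slides. It left 0 member calls in each comparison and gave IL1B 0.47 in untreated cells (adjusted p = 0.461 by limma). Arrays with the same number deviated together where they shared a slide, with r over 0.1 in 15 of 21 pairs. Same-number pairs across slides had r below 0. All pairs of LPS-treated arrays shared a slide, and 8 of 15 arrays correlated best with their own number.

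The reversed values were as follows. For IL1RN, LPS in SCC13-pUNO gave 0.18 with normexp, 0.076 with slide and 0.034 with slide and without the array named above (-0.21 to 0.20 over arrays left out), LPS in SCC13-TLR4 gave 0.022 with normexp (-0.44 to 0.091), and the difference of responses ranged from -0.40 to 0.12. For IL18, slide with and without that array gave 0.0285 and 0.0278 in untreated cells, 0.0207 and 0.0203 over both treatments, -0.0187 and -0.0188 for LPS in SCC13-TLR4 and -0.0156 and -0.0149 for the difference, and normexp gave 0.00787 over both treatments. Its ranges over arrays left out were -0.074 to 0.11 between LPS-treated lines, -0.082 to 0.012 over both, -0.13 to 0.0023 for LPS in SCC13-pUNO and -0.062 to 0.12 in SCC13-TLR4. For the first IL1RAP probe, LPS in SCC13-pUNO gave -0.0044 with quantile normalization, -0.085 with slide and without that array and -0.023 as the mean of its tested probes (-0.074 to 0.10). The second gave 0.011 with normexp for the same response (-0.15 to 0.030) and -0.13 to 0.047 between LPS-treated lines. The cause of each was not tested. Signal over background limits the faint members: 9 of 14 probes could not be compared.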
